A study of Mus musculus with 8 samples.

Results

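Genes of RNA sensing and of the interferon response were followed in mouse embryos that had been injected with mRNA. They were Ddx58, Ifih1, Tlr3, Eif2ak2, Mavs, Irf3, Irf7, Irf1, Isg15 and Ifit1, chosen by symbol; no threshold on measured values entered the choice, but earlier results of these data were known when it was made. All 10 were found among the 21553 genes with a value. The question put to them was whether injected mRNA went with any innate response.

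Cells recognise foreign RNA by sensor proteins. RIG-I (encoded by Ddx58) and MDA5 (Ifih1) bind viral-type RNA in the cytosol and signal through Mavs on mitochondria, TLR3 binds it in endosomes, and PKR (Eif2ak2) slows translation by phosphorylating eIF2α. The signal activates the transcription factors IRF3 and IRF7, which switch on type I interferon genes. Interferon acts through its receptors and JAK-STAT factors to raise interferon-stimulated genes such as Isg15, Ifit1, Irf7 and the sensors themselves. Pluripotent stem cells of the mouse are known for a weak interferon response, and the mouse zygote lives on maternal transcripts until its own genome becomes active, mainly at the 2-cell stage.

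All embryos were whole embryos of B6CBA F1 crosses that received mRNA by microinjection as zygotes. There were 8 groups with 1 library each: 2-cell embryos 24 h after injection of mRNA for Snrpb, Snrpd2, both, or mCherry, and 1-cell embryos 5 h after injection of Snrpb, Snrpd2, both, or mCherry. Snrpb and Snrpd2 encode Sm proteins of the spliceosome, and mCherry, a fluorescent protein, was the control. Each library was polyadenylated RNA from a pool of 40 embryos out of 3 experiments, so the spread between embryos and experiments is not visible and no group had a replicate. The control embryos had received mRNA as well, and uninjected embryos were not analysed here, so the injection contrasts set Sm mRNA against mCherry mRNA and not mRNA against none.

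The libraries held 39492734 to 44648717 counted reads at the 2-cell stage and 49461122 to 59979046 at the 1-cell stage. Where a gene has no read, up to 3 reads cannot be told from 0, or 0.0672 to 0.076 CPM (reads scaled to library size) in 2-cell and 0.05 to 0.0607 CPM in 1-cell libraries, for counting error only. The injected genes followed the labels. Snrpb stood at 11913 and 43850 cRPKM in the 1-cell libraries given it, against 6.09 and 7.96 in those not given it, and at 876 and 1704 against 17.4 and 26.2 cRPKM at the 2-cell stage. Snrpd2 stood at 9142 and 17926 against 0.85 and 1.89 cRPKM at the 1-cell stage, and at 4726 and 5240 against 5.20 and 10.6 at the 2-cell stage. All 12 oocyte and zygote markers had at least 10 reads in every library, and 7 markers of the 2-cell stage summed to 776 to 1059 cRPKM in 2-cell and 10.3 to 13.9 cRPKM in 1-cell libraries. Most of the 2-cell sums came from 1 gene. Gm5662 gave 533 to 828 cRPKM of them from only 108 to 181 reads per library. Across 16918 genes, log2(CPM + 0.1) correlated at 0.9789 to 0.9838 between libraries of the 2-cell stage and at 0.9867 to 0.9913 between those of the 1-cell stage, where the mCherry library had the lowest mean correlation with the others (0.9872, against 0.9892 to 0.9897).

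The stretches before the gene starts were searched for the element through which interferon-stimulated genes are known to respond. RefSeq promoter windows (build GRCm38.p6, the 250 bases before each start) were found for all 10 genes, with a second start for Irf1. The letters GAAANNGAAA, the core of an interferon-stimulated response element, were searched on both strands, and 978 of 32851 windows of this length held them (2.98%). Of the 10 genes 2 had a match, Isg15 and Ifit1. Isg15 held 3 overlapping matches that began 78, 72 and 66 bases before the start, and Ifit1 held 2 on the opposite strand, which began 104 and 85 bases before it. Irf7, which like Isg15 had a few reads at the 1-cell stage and far more at the 2-cell stage, had no match in its window, and that says only that these letters are not in this stretch. The 3 windows are printed here because they belong to the 2 effector genes and to the other gene of the set that was near 0 in every 1-cell library and well above it in every 2-cell library, with bases of a match in capitals: Isg15 on the minus strand of chr4:156200819-156201068, Ifit1 on the plus strand of chr19:34640639-34640888 and Irf7 on the minus strand of chr7:141266425-141266674.
Isg15: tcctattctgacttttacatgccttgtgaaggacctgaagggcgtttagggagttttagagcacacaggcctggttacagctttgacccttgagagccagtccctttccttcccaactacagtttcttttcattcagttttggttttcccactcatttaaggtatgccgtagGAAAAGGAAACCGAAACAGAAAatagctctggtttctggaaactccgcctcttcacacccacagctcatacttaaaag
Ifit1: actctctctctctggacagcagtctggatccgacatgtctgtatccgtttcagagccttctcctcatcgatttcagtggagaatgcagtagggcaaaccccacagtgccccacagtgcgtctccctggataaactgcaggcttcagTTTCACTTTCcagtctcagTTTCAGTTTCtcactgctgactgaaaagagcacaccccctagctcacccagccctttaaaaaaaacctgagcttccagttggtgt
Irf7: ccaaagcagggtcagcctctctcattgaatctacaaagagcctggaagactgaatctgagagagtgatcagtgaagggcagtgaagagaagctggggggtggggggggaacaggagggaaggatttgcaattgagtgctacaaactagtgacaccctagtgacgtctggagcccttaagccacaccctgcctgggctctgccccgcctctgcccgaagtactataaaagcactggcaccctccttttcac

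At the 1-cell stage the set was already uneven. Per gene length (cRPKM, which scales reads to gene length and library total), Irf1 was the most abundant (39.3 ± 8.0, SD, n = 4 libraries of different injections), followed by Mavs (16.7 ± 0.783), Ddx58 (9.68 ± 0.983), Irf3 (1.75 ± 0.272), Tlr3 (0.61 ± 0.197) and Eif2ak2 (0.245 ± 0.118). The ranges of neighbours in this order did not overlap. Ifit1, Ifih1, Irf7 and Isg15 lay below them, with ranges that overlapped from each to the next. At the 2-cell stage Irf1 (18.9 ± 1.60) and Mavs (18.0 ± 2.23) overlapped at the top, above Ddx58 (13.4 ± 1.23). Irf7 (2.80 ± 0.801), Isg15 (2.40 ± 0.808) and Tlr3 (1.83 ± 0.168) overlapped in the middle, ahead of Irf3 (1.23 ± 0.278). Eif2ak2 (0.37 ± 0.145) came next and overlapped with Ifit1 (0.128 ± 0.0888), which overlapped with Ifih1 (0.005 ± 0.01).

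**Figure D1:**
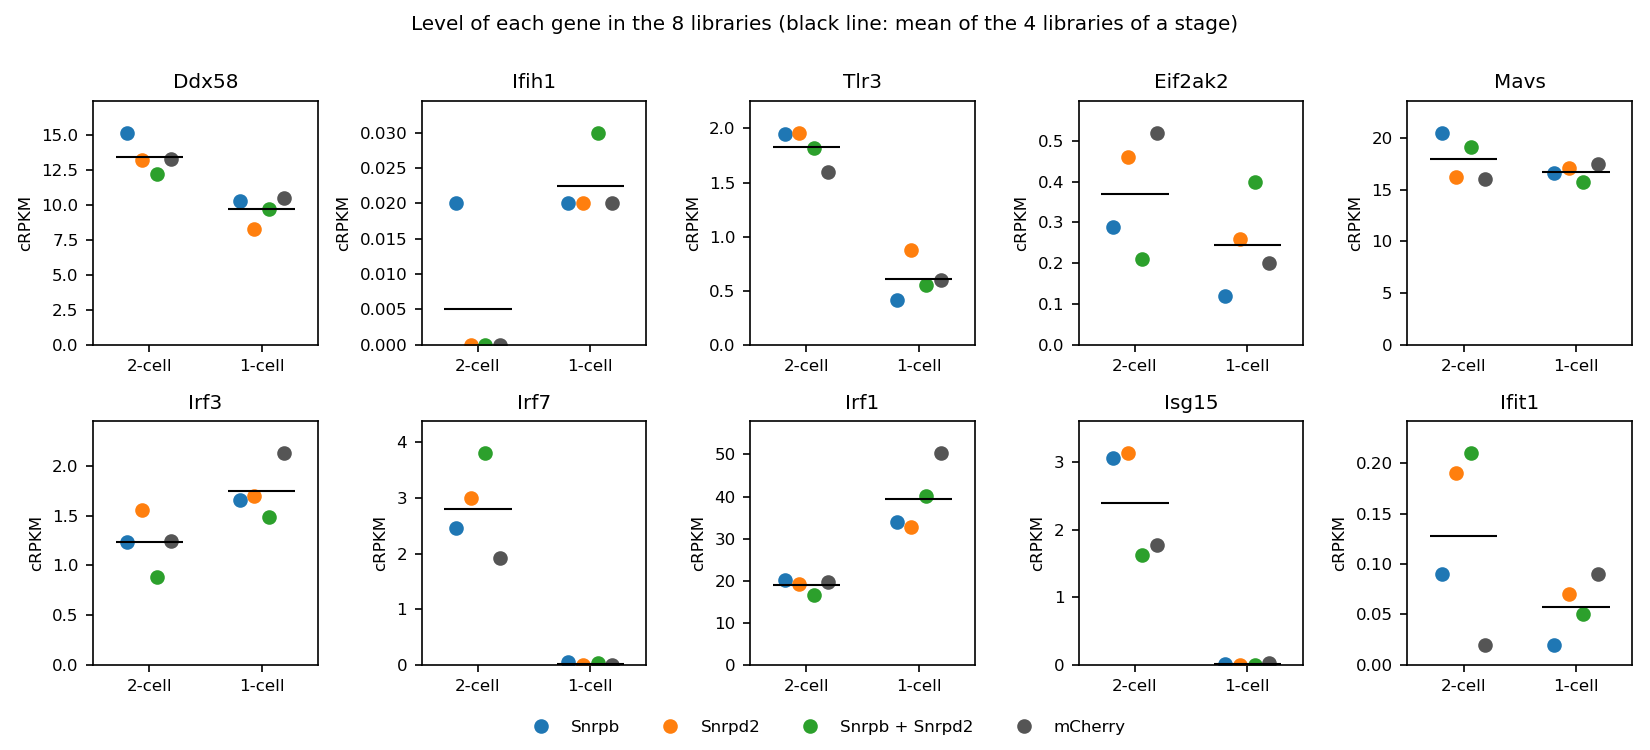
Level of each of the 10 genes (y axis, cRPKM, a scale per gene) in the 4 libraries of the 2-cell stage and the 4 of the 1-cell stage; each point is 1 library, coloured by injection, and the black line is the stage mean. Irf7 and Isg15 lie near 0 in every 1-cell library and between 1.63 and 3.81 in every 2-cell library, and Irf1 lies lower in all 2-cell than in all 1-cell libraries.

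Between the stages, Isg15, Irf7 and Tlr3 rose and Irf1 and Irf3 fell. The stage effect was tested with the 4 injections as a block in edgeR's quasi-likelihood fit, and calls were made at a Benjamini-Hochberg adjusted p of 0.05. Of the 10 genes 9 were tested, 3 were called higher and 2 lower at the 2-cell stage, and Ifih1 had too few reads. Most genes of the embryo differ between these stages: 70.1% of the 16264 tested were called, 38.1% higher and 32% lower, so the count for the set is no result about it. The median gene stood 0.15 higher on the log2 scale, and the median of the 9 was 0.42. Isg15 and Irf7 passed the filter on low counts through the 2-cell libraries alone. In RNA from whole embryos, fewer cells of a type and less RNA per cell cannot be told apart.

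Among the sensors, Ddx58 was well expressed throughout. It stood at 15.1, 13.2, 12.2 and 13.2 cRPKM in 2-cell embryos given Snrpb, Snrpd2, both and mCherry, against 10.3, 8.29, 9.67 and 10.5 cRPKM in 1-cell embryos in the same order. All 2-cell values lay above all 1-cell values. The log2 fold change of scaled counts was 0.22 (SE 0.11, adjusted p = 0.115), which missed the threshold, and it depends on the scaling. The trimmed-mean (TMM) factors were 1.0733 to 1.136 in 2-cell and 0.8696 to 0.9475 in 1-cell libraries, so a gene with equal scaled reads has a higher cRPKM at the 2-cell stage. With library totals in place of TMM the median of all genes moved to 0.41 and Ddx58 to 0.48 (adjusted p = 0.00538).

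Ifih1, the sensor of long viral-type RNA, was almost silent. It had 5, 0, 1 and 0 reads in 2-cell embryos given Snrpb, Snrpd2, both and mCherry, against 5, 5, 7 and 6 reads in 1-cell embryos. No library of either stage reached 10 reads. Without the filter its log2 fold change was -2.3 (adjusted p = 0.164).

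Tlr3, the endosomal sensor, rose. It had 338, 375, 308 and 292 reads in 2-cell embryos given Snrpb, Snrpd2, both and mCherry (1.95, 1.96, 1.82 and 1.60 cRPKM), against 104, 205, 117 and 142 reads in 1-cell embryos (0.41, 0.88, 0.55 and 0.60 cRPKM). The stages did not overlap, and the Snrpd2 library had the most reads of its stage in both. At the 2-cell stage the Snrpb library was higher in TMM-scaled reads, with a ratio to mCherry of 1.20 against 1.16 for Snrpd2. The fold between the stages was 2.59 (log2 1.38, SE 0.23, adjusted p = 0.000336), and it was above 1 for each injection, between 1.76 and 3.86. A non-coding gene, Gm45542, is annotated on the opposite strand of Tlr3, and whether the authors counted by strand is not given in the sources used here.

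Eif2ak2, which encodes PKR, stayed low and scattered. It had 49, 85, 34 and 91 reads in 2-cell embryos given Snrpb, Snrpd2, both and mCherry, against 29, 58, 81 and 45 reads in 1-cell embryos. The stages overlapped, and the library given both was the highest of the 1-cell stage and the lowest of the 2-cell stage. The log2 fold change was 0.42 (SE 0.44, adjusted p = 0.418).

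Mavs, the adaptor shared by RIG-I and MDA5, was nearly level. It stood at 20.5, 16.2, 19.1 and 15.99 cRPKM in 2-cell embryos given Snrpb, Snrpd2, both and mCherry, against 16.6, 17.1, 15.7 and 17.5 cRPKM in 1-cell embryos. The stages overlapped. The log2 fold change was -0.16 (SE 0.13, adjusted p = 0.275) and turned to 0.10 with library totals.

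The interferon regulatory factors moved in different directions. Irf3, the factor that acts first because it waits in the cytoplasm, had 100, 138, 69 and 105 reads in 2-cell embryos given Snrpb, Snrpd2, both and mCherry, against 197, 182, 146 and 235 reads in 1-cell embryos. Every 2-cell count was below every 1-cell count, although in cRPKM the 2-cell Snrpd2 library (1.56) exceeded the 1-cell library given both (1.49). Irf3 fell 1.71-fold (log2 -0.77, SE 0.23, adjusted p = 0.0124). The call was lost with library totals (adjusted p = 0.0834), without the 1-cell library given both (adjusted p = 0.0523) and without the 2-cell library given both (adjusted p = 0.0527). The protein-coding gene Bcl2l12 overlaps Irf3 on the opposite strand, and its own level was 2.60 ± 0.347 cRPKM at the 2-cell stage and 5.32 ± 1.34 at the 1-cell stage (SD, n = 4 each). Its part in the Irf3 values was not tested.

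Irf7, the factor that amplifies the interferon response and is itself an interferon-stimulated gene, appeared between the stages. It had 187, 250, 281 and 153 reads in 2-cell embryos given Snrpb, Snrpd2, both and mCherry, against 6, 0, 4 and 0 reads in 1-cell embryos. The summed counts of 871 against 10 gave a ratio of 94.6 (95% counting interval 51.2 to 198). The fitted log2 fold change was 6.58 (SE 0.59, adjusted p = 4.01e-06), and it was 7.44 without the 1-cell Snrpb library and 7.46 without the 2-cell Snrpb library. In the mCherry embryos alone the ratio was 57.8 against a floor of 3 reads in the 1-cell library. The lower limit of the 95% counting interval, which allows for the error of both counts, was 46.4. Phrf1 overlaps Irf7 on the opposite strand and stood at 1.29 ± 0.263 cRPKM at the 2-cell stage and 1.16 ± 0.158 at the 1-cell stage (SD, n = 4 each), a difference within the spread.

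Irf1, which activates many interferon-stimulated genes and is known as a rapid target of interferon gamma, was the most abundant of the set and fell. It stood at 20.2, 19.1, 16.6 and 19.7 cRPKM in 2-cell embryos given Snrpb, Snrpd2, both and mCherry, against 34.0, 32.9, 40.0 and 50.3 cRPKM in 1-cell embryos. The groups did not overlap. The fold was 2.46 lower (log2 -1.30, SE 0.13, adjusted p = 9.89e-06), and for the single injections it lay between 2.09 for Snrpb and 2.96 for mCherry. The gene annotated opposite to Irf1, Gm17334, was listed at 0 in all libraries.

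The effectors differed from each other. Isg15, a ubiquitin-like protein that is joined to other proteins during an interferon response, had 87, 98, 45 and 53 reads in 2-cell embryos given Snrpb, Snrpd2, both and mCherry (3.06, 3.14, 1.63 and 1.78 cRPKM), against 1, 0, 0 and 1 read in 1-cell embryos. Summed, 283 against 2 reads gave a ratio of 154 (95% counting interval 42.2 to 1280), and the fitted log2 fold change was 6.94 (SE 0.70, adjusted p = 9.94e-06). In mCherry embryos alone Isg15 had 53 reads against 1 (95% counting interval of the ratio 10.3 to 2410).

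Ifit1, which binds RNA ends that lack the marks of cellular mRNA, stayed near the floor. Its promoter window, like that of Isg15, holds the letters marked above. It had 8, 19, 19 and 2 reads in 2-cell embryos given Snrpb, Snrpd2, both and mCherry, against 3, 9, 6 and 11 reads in 1-cell embryos. The stages overlapped, and the mCherry library was the lowest of the 2-cell stage and the highest of the 1-cell stage. The log2 fold change was 0.70 (SE 0.82, adjusted p = 0.463). Ifit1 has close family copies, and how the authors assigned reads that map to several genes is not given, so its counts are uncertain.

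At the 1-cell stage, 5 h after injection, none of the 9 tested genes was called between Sm and mCherry embryos. The 3 Sm libraries were fitted as a group against the single mCherry library, which is assumed to vary like them. Of all 16867 genes 0% were called by edgeR, with 2618 genes and 1 of the 9 at an unadjusted p under 0.05, while DESeq2 called 420 genes higher and 114 lower, none of them among the 9. The gene of the set with the small unadjusted p was Irf1, with 4133, 3611 and 4016 reads in embryos given Snrpb, Snrpd2 and both, against 5696 in mCherry embryos. All 3 Sm values lay below the control (log2 -0.47, SE 0.16, adjusted p = 0.227), and over the alternatives the change ran from -0.51 to -0.40 with adjusted p from 0.107 to 0.426.

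The other 1-cell values were small or rested on few reads. Ddx58 differed by -0.12 on the log2 scale (SE 0.19, adjusted p = 0.804), Mavs by -0.06 (SE 0.18, adjusted p = 0.924) and Tlr3 by 0.08 (SE 0.38, adjusted p = 0.958). Eif2ak2 differed by 0.41 (SE 0.65, adjusted p = 0.801) and Irf3 by -0.36 (SE 0.34, adjusted p = 0.648). Irf7 had 10 reads over the 3 Sm libraries and 0 in mCherry embryos, and was not called for the group. Its 6 reads in the Snrpb library gave a ratio of 1.98 to a floor of 3 reads in mCherry. The lower limit of the 95% counting interval, which allows for the error of both counts, was 1.17. Isg15 had 1 read over the Sm libraries and 1 in mCherry, and Ifit1 had 3, 9 and 6 against 11 (adjusted p = 0.768 and 0.755). At these counts a difference in Irf7, Isg15 or Ifit1 was not detectable at the 1-cell stage unless it was large.

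At the 2-cell stage, 24 h after injection, again 0% of 16867 genes were called by edgeR, with 637 genes and none of the 9 at an unadjusted p under 0.05, and DESeq2 called none of the 9. The adjusted p was 1 for each of them, and no value given here passed a test. Irf7 was higher in all 3 Sm libraries, with 187, 250 and 281 reads in embryos given Snrpb, Snrpd2 and both, against 153 in mCherry embryos (log2 0.64, SE 0.52). Isg15 was higher in 2 of 3, with 87, 98 and 45 reads against 53 (log2 0.51, SE 0.64). Ifit1 had 8, 19 and 19 reads against 2 (log2 2.85, SE 1.32). Eif2ak2 was lower in all 3, with 49, 85 and 34 reads against 91 (log2 -0.74, SE 0.60). The sensor Ddx58 (log2 -0.01, SE 0.19), the adaptor Mavs (0.18, SE 0.19), Tlr3 (0.21, SE 0.36), Irf1 (-0.12, SE 0.17) and Irf3 (-0.06, SE 0.36) stayed within their errors.

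The mCherry library was the lowest or the highest of its stage for some of the set, as it was for many other genes. At the 2-cell stage 3 of the 9 genes with at least 10 reads (Tlr3, Irf7 and Ifit1) were higher in all 3 Sm libraries and 1 (Eif2ak2) was lower, where 23.1% of 16665 genes were higher and 23.5% lower. At the 1-cell stage 0 of 7 were higher and 3 (Irf1, Irf3 and Ifit1) lower, where 30.7% of 14733 genes were higher and 36.7% lower.

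No gene of the set had a Sm effect that was called different between the stages, where again 0% of 16867 genes were called, with 1648 genes at an unadjusted p under 0.05, and DESeq2 called 8 higher and 23 lower but none of the set. Ifit1 was the only gene of the set with an unadjusted p under 0.05 (log2 difference 3.63, SE 1.65, adjusted p = 0.51), which rests on the 2 reads and 11 reads of the mCherry libraries. The adjusted p of the other 8 ran from 0.608 to 0.963.

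Each Sm library was also set against the mCherry library of its stage. Among genes of the set with at least 50 reads, few differed by 2-fold or more. Some smaller differences exceeded counting error. The 3 ratios of a stage share its mCherry library. They compare libraries, not conditions, and their 95% intervals cover counting error only. A ratio was counted when a library had at least 50 reads, the ratio was at least 2-fold and its interval lay beyond 1. At the 1-cell stage 5, 6 and 6 genes had enough reads for Snrpb, Snrpd2 and both, and 0 were counted, against 4.64%, 5.17% and 4.17% of all such genes. At the 2-cell stage 8 genes had enough reads for each, and 0, 0 and 1 were counted, against 4.37%, 4.31% and 3.51% of all such genes. Whatever the size of the ratio, the interval lay beyond 1 for 2, 4 and 5 of these genes at the 1-cell stage and for 6, 4 and 6 at the 2-cell stage. The share of all genes with such an interval was not computed, so these counts are no result about the set. The counted gene was Eif2ak2 in the library given both, with 34 reads against 91 (ratio 0.393, interval 0.257 to 0.589). In the 1-cell library given both, Eif2ak2 was at 81 reads against 45 (ratio 1.99, interval 1.36 to 2.93), just under the 2-fold line and in the opposite direction. Ifit1 did not reach 50 reads and so could not be counted. Its 2-cell ratios were 4.16 (0.83 to 40.2) for Snrpb, 8.55 (2.06 to 75.7) for Snrpd2 and 9.99 (2.41 to 88.5) for both. They rest on 2 mCherry reads. Its 1-cell ratios were 0.27, 0.866 and 0.602 in the same order, with intervals that included 1.

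Among genes with at least 50 reads, the largest upward ratios of the 2-cell stage were those of Irf7 and Isg15. Irf7 stood at 1.27 (interval 1.02 to 1.58) for Snrpb, 1.47 (1.20 to 1.81) for Snrpd2 and 1.93 (1.58 to 2.37) for both. Isg15 stood at 1.71 (1.20 to 2.45) for Snrpb and 1.66 (1.18 to 2.37) for Snrpd2, but at 0.893 (0.587 to 1.35) for both, so the library with the highest Irf7 ratio had the lowest Isg15 ratio. At the 1-cell stage Irf1 had intervals below 1 for every Sm library, at 0.719 (0.691 to 0.749) for Snrpb, 0.671 (0.643 to 0.699) for Snrpd2 and 0.778 (0.747 to 0.810) for both.

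**Figure D2:**
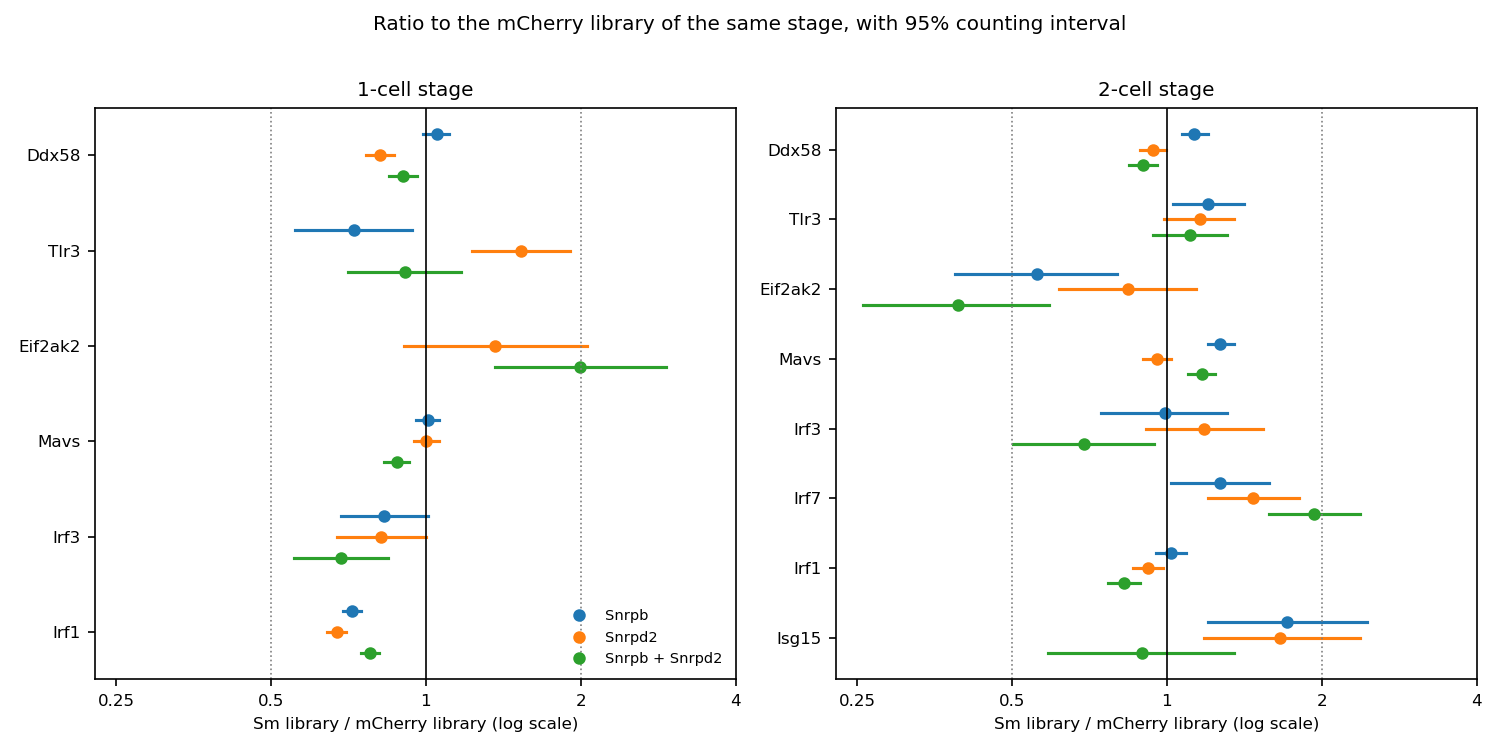
Ratio of each Sm library to the mCherry library of the same stage (x axis, log scale) for genes that reach 50 reads in one of the libraries compared, at the 1-cell stage (left) and the 2-cell stage (right); points are ratios of TMM-scaled reads, bars are 95% counting intervals, and dotted lines mark 2-fold. Only Eif2ak2 in the 2-cell library given both (0.393) lies beyond a dotted line, Irf1 lies at 0.671 to 0.778 at the 1-cell stage, and Irf7 lies right of 1 for each injection at the 2-cell stage.

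The wider pathway was read from 7 other lists with 129 genes found of 132. At the stage change 103 of them were tested, 54 rose and 31 fell, where 70.1% of all genes were called. In the list of other interferon regulatory factors and their binding proteins 7 of 9 genes rose and 1 fell, where 38.1% of all genes rose and 32% fell (median log2 3.0, against 0.15 over all genes). The list holds 3 IRF2-binding proteins, which are not factors of the family and all rose. Of the other 6 genes 4 rose and 1 fell. Irf9, a DNA-binding factor of the type I interferon response, rose 7.98-fold (1.93 ± 0.337 cRPKM at the 2-cell stage and 0.21 ± 0.095 at the 1-cell stage, SD, n = 4 each, adjusted p = 1.19e-05). Of the binding proteins, Irf2bpl rose 21.6-fold and Irf2bp1 5.68-fold. Irf8, a factor best known from myeloid cells, fell 3.97-fold.

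Of the interferon-stimulated genes found, 27 of 37 were tested, 17 rose and 3 fell (median log2 1.03, against 0.15), where 38.1% of all genes rose and 32% fell. Ifi35 rose 46.4-fold (3.54 ± 0.768 cRPKM at the 2-cell stage and 0.062 ± 0.038 at the 1-cell stage, SD, n = 4 each, adjusted p = 2.25e-06). It had 18 reads over the 1-cell libraries and passed the filter on low counts through the 2-cell libraries alone. The chemokine gene Cxcl10 rose 19.8-fold and Igtp, a GTPase gene induced by interferon gamma, 12.2-fold. Cmpk2 fell 3.28-fold and Samhd1, which depletes nucleotides, fell 1.36-fold, with cRPKM that overlapped between the stages. With library totals or limma, 2 in place of 3 genes of the list were called lower. The most abundant member of the list, Ifitm3, a membrane protein that blocks virus entry, was at 91.0 ± 8.59 cRPKM at the 2-cell stage and 53.4 ± 1.51 at the 1-cell stage (SD, n = 4 each), a rise of 1.42-fold.

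Among the other RNA sensors and cofactors 5 of 20 tested genes rose and 13 fell, where 38.1% of all genes rose and 32% fell (median log2 -0.62, against 0.15). Oas1d fell 9.95-fold (178 ± 24.1 cRPKM at the 2-cell stage and 1480 ± 227 at the 1-cell stage, SD, n = 4 each, adjusted p = 4.46e-08) and Oas1e fell 9.73-fold. They belong to the oligoadenylate synthetase family, were the most abundant genes of the list and are close copies whose reads may be shared. Rnf135, a ubiquitin ligase of RIG-I, fell 8.45-fold, while Trim25, another such ligase, rose 60.5-fold (3.73 ± 0.661 cRPKM at the 2-cell stage and 0.05 ± 0.018 at the 1-cell stage, SD, n = 4 each, adjusted p = 1.67e-08). Dhx9 rose 2.71-fold and Tlr8 1.93-fold.

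Signalling adaptors and kinases rose in 11 and fell in 6 of 19 genes (median log2 0.89), beside the same 38.1% and 32% of all genes. The kinase Tbk1, which phosphorylates IRF3, fell 4.32-fold (4.50 ± 0.477 cRPKM at the 2-cell stage and 16.2 ± 1.05 at the 1-cell stage, SD, n = 4 each, adjusted p = 3.54e-07), the DNA sensor Cgas fell 7.19-fold and Nfkbia, the inhibitor of NF-κB, 4.21-fold. Traf2 rose 9.82-fold, Traf6 4.4-fold, Myd88 2.25-fold and Tank 1.78-fold. Of the interferons, receptors and JAK-STAT genes 9 of 15 rose and 3 fell (median log2 0.98), beside the same shares of all genes. The feedback inhibitors Socs3 and Socs1 rose 8.74-fold and 5.41-fold, and the receptor chain Ifngr2 5.03-fold. Stat2 fell 5.26-fold and Il10rb 2.27-fold, Jak2 rose 1.47-fold, and Jak1 stood at 72.7 cRPKM at the 2-cell and 65.7 at the 1-cell stage (adjusted p = 0.466).

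Of the kinases of eIF2α other than PKR and their pathway 4 of 10 rose and 5 fell (median log2 -0.16), where 38.1% of all genes rose and 32% fell. Trib3 rose 20.5-fold, Eif2ak3, the kinase of the unfolded protein response, 4.11-fold and Ppp1r15b, a phosphatase subunit, 3.52-fold. Dnajc3, an inhibitor of these kinases, fell 5.23-fold, Ddit3 2.59-fold, Eif2ak1 2.32-fold, Eif2s1 1.73-fold and Atf4 1.23-fold (adjusted p = 0.0358). With DESeq2's size factors, library totals or limma, 4 in place of 5 were called lower. Inflammatory cytokine genes were barely measured, with 3 of 9 tested and 1 higher. Ccl2, the most abundant, was at 0.802 cRPKM at the 2-cell and 0.345 at the 1-cell stage (adjusted p = 0.111).

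**Figure D3:**
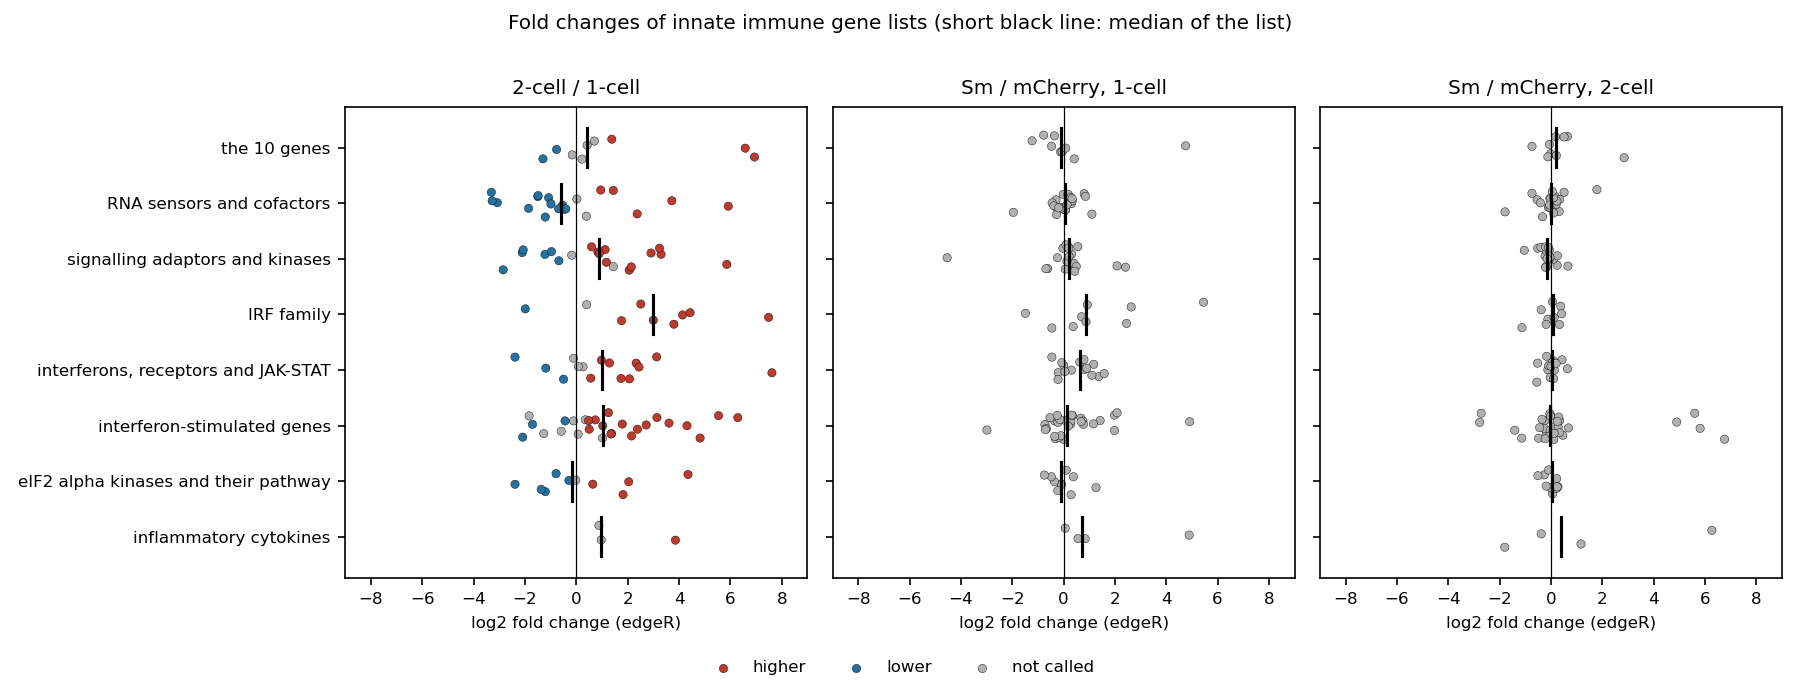
Log2 fold changes from edgeR (x axis) of the 10 genes and of the 7 pathway lists, for 2-cell over 1-cell (left), Sm over mCherry at the 1-cell stage (middle) and Sm over mCherry at the 2-cell stage (right); each point is a tested gene, coloured where the adjusted p is under 0.05, with the list median as a black line. The list named IRF family in the plot holds the 3 IRF2-binding proteins as well. Calls in both directions fill the left panel, and the other panels hold none.

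Between Sm and mCherry embryos the wider pathway gave no call by edgeR at either stage. At the 1-cell stage 109 of the 129 were tested and 25 had an unadjusted p under 0.05, beside 2618 of all 16867 genes. DESeq2 called 3 of them higher, the JAK-STAT genes Stat3 (log2 0.78, DESeq2 adjusted p = 0.00677) and Tyk2 (0.81, DESeq2 adjusted p = 0.0304) and the eIF2α kinase gene Eif2ak4 (1.25, DESeq2 adjusted p = 0.00108), where edgeR gave adjusted p of 0.149, 0.178 and 0.147. Stat3, a factor that signals for many cytokines, had 9853, 11227 and 8047 reads in embryos given Snrpb, Snrpd2 and both, against 5873 in mCherry embryos. Eif2ak4, which encodes the amino acid sensor GCN2, had 4768, 6905 and 4195 reads, against 2325. Median log2 changes at this stage were 0.87 for the list of regulatory factors and binding proteins (0.78 with genes at 0 reads set to the floor) and 0.63 for interferons, receptors and JAK-STAT (0.71 at the floor), 0.20 for signalling, 0.12 for interferon-stimulated genes and 0.07 for sensors, beside 0 over all genes.

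At the 2-cell stage 4 of 109 had an unadjusted p under 0.05, beside 637 of 16867 genes, and DESeq2 called 0. The median was -0.02 for interferon-stimulated genes, 0.01 for sensors, -0.15 for signalling, 0.06 for the regulatory factors and binding proteins and 0.04 for interferons, receptors and JAK-STAT, beside 0.02 over all genes. For the difference between the stages 15 of 109 had an unadjusted p under 0.05, beside 1648 of 16867 genes, and neither edgeR nor DESeq2 called any.

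The type I interferon genes that were found were next to silent. Ifna1 and Ifna5 were listed but not found, and further genes of this family were not listed. How reads that map to several genes were assigned is not given. The 5 found (Ifnb1, Ifna2, Ifna4, Ifne and Ifnk) summed to 1 read over the 2-cell libraries, out of 167236025, and to 7 over the 1-cell libraries, out of 219364627. Ifnb1, the interferon first made after RNA sensing, had 0 reads in every 2-cell library, and 3, 2, 1 and 0 reads in 1-cell embryos given Snrpb, Snrpd2, both and mCherry. At this depth a difference in them was not detectable.

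Markers of other cells moved beside some of these values. The 18 cumulus cell markers, genes of the cells that surround the egg, summed to 36.8, 34.8 and 50.8 cRPKM in 1-cell embryos given Snrpb, Snrpd2 and both, against 25.1 in mCherry embryos, and 12 to 14 of them had at least 10 reads. At the 2-cell stage they summed to 26.5, 38.0 and 28.7 cRPKM, against 24.1. Single genes weigh heavily in these sums. Cyp19a1 gave 17.7, 19.7 and 18.1 cRPKM of the 1-cell sums, against 15.5 in mCherry embryos. Hsd3b1 gave 6.99 cRPKM of the 2-cell Snrpd2 sum, against 0.13 in mCherry embryos. DESeq2 called Tnfaip6 and Ptgs2 of this list higher in 1-cell Sm embryos (log2 2.5 each, where edgeR gave adjusted p of 0.146 and 0.147). All 3 Sm libraries of the 1-cell stage had a higher cumulus sum and a lower Irf1 level than the mCherry library. At this stage 36.7% of 14733 genes were lower in all 3 Sm libraries. Among the Sm libraries the order was not inverse. The library given both was the highest in the cumulus sum and in Irf1 (40.0 cRPKM), and the Snrpd2 library was the lowest in both (Irf1 32.9 cRPKM). The part of the cumulus markers in the 1-cell values of Stat3, Tyk2, Eif2ak4 and Irf1 was not tested. The 10 immune cell markers summed to 8.26, 21.5, 10.9 and 9.04 cRPKM in 2-cell embryos given Snrpb, Snrpd2, both and mCherry, against 6.36, 3.28, 2.55 and 2.42 cRPKM in 1-cell embryos, and 5 to 8 of them had at least 10 reads in 2-cell libraries, against 2 to 3 in 1-cell libraries. Of the 7 tested, 3 were called higher at the 2-cell stage and 0 lower. Of all genes tested 38.1% were called higher and 32% lower, so this count is no result about the markers. Lyz2, a lysozyme gene of myeloid cells, had 76, 326, 140 and 102 reads in 2-cell embryos in the same order, against 0, 2, 2 and 0 in 1-cell embryos. Cd14 had 457 reads over the 2-cell libraries, against 4 over the 1-cell libraries, and Itgam had 117, against 9. Lyz2, Cd14 and Itgam passed the filter on low counts through the 2-cell libraries alone. Cd68, Csf1r and Tyrobp went the other way in summed reads, with 382, 54 and 20 reads over the 2-cell libraries, against 648, 129 and 38. Cd68 was not called (edgeR adjusted p = 0.0799). The Tyrobp reads were all from the 2-cell Snrpd2 and the 1-cell Snrpb library. The 1-cell Snrpb library also gave 76 of the Csf1r reads. Adgre1 had no read at the 2-cell stage, and the 15 reads of Ptprc, the common marker of leukocytes, were all from the Snrpd2 library. The 2-cell Snrpd2 library, the highest in immune markers, had the most Isg15 reads (98). The 2-cell Snrpb library, the lowest of its stage in immune markers, was close to it in Isg15, at 3.06 against 3.14 cRPKM. Irf7 was highest in the 2-cell library given both (281 reads). The immune marker sum, like Isg15 and Irf7, was higher in every 2-cell than in every 1-cell library. Lyz2 gave 3.76, 14.7, 7.12 and 4.81 cRPKM of the 2-cell sums for Snrpb, Snrpd2, both and mCherry. Without Lyz2 the sums of the stages overlapped. The part of immune cells in the Isg15 and Irf7 values was not tested.

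**Figure D4:**
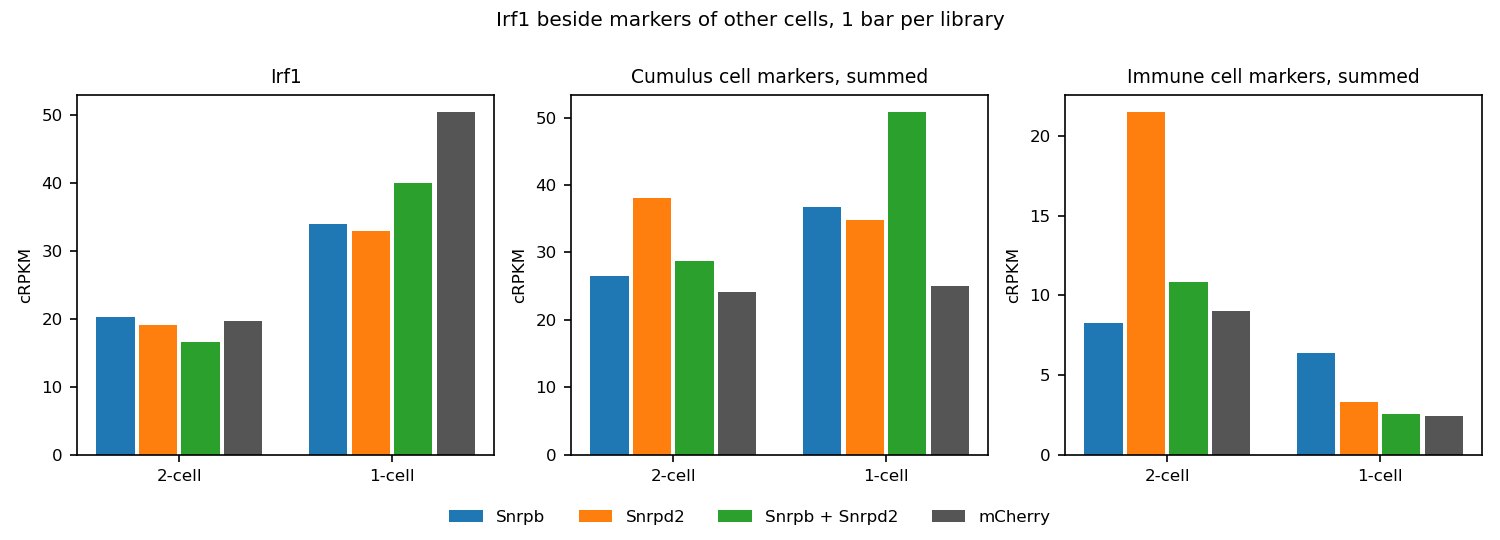
Irf1 (left), the summed 18 cumulus cell markers (middle) and the summed 10 immune cell markers (right) in cRPKM (y axes, from 0), 1 bar per library, by stage and injection. At the 1-cell stage mCherry embryos have the highest Irf1 (50.3) and the lowest cumulus sum (25.1). Among the Sm libraries of that stage the one given both is the highest in Irf1 and in the cumulus sum. At the 2-cell stage the Snrpd2 embryos have the highest immune sum (21.5, of which Lyz2 gives 14.7).

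Over the 8 libraries a few genes correlated closely with the most abundant members of the set. By Pearson's r of log2(cRPKM + 0.1) over 16263 other genes, given as a description of libraries that differ mainly by stage, Irf1 was most like Tmed10 (r = 0.9984, 38.4 cRPKM at the 2-cell and 59.5 at the 1-cell stage) and Ccdc60 (r = 0.9969). Mavs was most like Ralgapa2 (r = 0.9537) and Stam2 (r = 0.9227), and Ddx58 was most like Zfp607a (r = 0.9896) and Abo (r = 0.9728). This r does not compare the size of a change. Zfp607a was at 0.66 cRPKM at the 2-cell and 0.1 at the 1-cell stage, and Abo at 0.9 and 0.08. Ddx58 was at 13.4 and 9.68 cRPKM.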

How the data were processed

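Per the labels' protocols, RNeasy Micro columns gave the RNA, SMARTer Stranded kits the libraries and a HiSeq2500 the reads. The authors deposited 1 table per library with, per Ensembl gene, whole-number read counts and cRPKM, an RPKM value. Reads were placed on mm9, per the submitters' processing notes. Aligner, annotation and strand setting: not given in the sources used here. Of 22667 identifiers 1114 had no value. For 2662 genes with over 2000 reads in every library the deposited cRPKM equalled counts over a fixed length and the library total within 0.21%. Symbols and overlapping genes came from GENCODE M21 (GRCm38), without coordinates, and promoters from RefSeq (GRCm38.p6).

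Counts were tested with edgeR 4.0.16 (quasi-likelihood, TMM, filterByExpr, Benjamini-Hochberg over all genes tested) in R 4.3.3. The stage model had terms for injection and stage (3 residual degrees of freedom, common dispersion 0.043). The injection model had 4 groups, stage by Sm or mCherry (4 residual degrees of freedom, 0.0362). These p-values measure the spread between differently injected libraries, not between replicate pools. DESeq2 1.42.0, limma 3.58.1 on log2(cRPKM + 0.1) or log2(cRPKM + 1), other scalings, no filter and leaving out libraries were alternatives. Ratios of 2 libraries used exact conditional binomial intervals (scipy 1.17.1). No 2 libraries had the same reads in more than 21.23% of genes. The scripts were tested on simulated data. All 10 genes are named; from the other lists, up to 3 genes per direction with the largest called change and a mean of at least 1 cRPKM, and the 2 most abundant, apart from 1 gene that is not reported here. Genes of the lists named outside this rule were chosen after their values were seen. The members and lists were chosen with earlier results of these data known.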

Additional observations from a re-analysis of the deposited data

Results flagged for a closer look

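Ifih1 gave 2 deposited values that were apart from the others of their stage, both on a few reads. In 1-cell embryos given both Sm mRNAs it was at 0.03 cRPKM, from 7 reads, while the other 3 libraries of the stage were all at 0.02. In 2-cell embryos given Snrpb it was at 0.02 cRPKM, from 5 reads, while the other 3 libraries were at 0 after rounding, with 0 or 1 read. In rounded cRPKM the gap to the nearest library was the whole range of the stage, above Dixon's 95% limit for 4 values. In scaled reads (5, 5, 7 and 6 reads at the 1-cell and 5, 0, 1 and 0 at the 2-cell stage, for Snrpb, Snrpd2, both and mCherry) the gap was 0.62 and 0.80 of the range, which is under that limit. Chance flags about 1 in 20 such groups.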

How the results depend on the processing

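Of the 5 stage calls, those of Isg15, Irf7, Tlr3 and Irf1 held under every alternative run, with log2 fold changes of 1.72 to 7.51, 1.87 to 7.46, 0.82 to 1.63 and -1.41 to -1.0. The low ends for Isg15 and Irf7 come from log2(cRPKM + 1), which shrinks low genes. The number of the set called lower was 1 in place of 2 with library totals and with limma on log2(cRPKM + 0.1), and ran from 1 to 2 when a library was left out, each time because Irf3 missed the threshold. Ddx58 was called higher with library totals (0.48), DESeq2 (0.26) and both limma fits (0.47 and 0.44). Mavs turned to 0.1 with library totals, 0.1 with limma on log2(cRPKM + 0.1) and 0.09 on log2(cRPKM + 1). Library totals moved the median gene by 0.41 in place of 0.15.

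No alternative called any of the set in a Sm contrast. These values changed sign, all short of the threshold: at the 1-cell stage Mavs (-0.09 to 0.03 with a library left out) and Tlr3 (-0.03 with limma on log2(cRPKM + 0.1), -0.27 to 0.29 with a library left out); at the 2-cell stage Ddx58 (0.01 with DESeq2's size factors, 0.03 with library totals, 0.01 with DESeq2, 0.02 in both limma fits, -0.12 to 0.05 with a library left out) and Irf3 (-0.25 to 0.12 likewise); for the difference between stages Tlr3 (-0.08 to 0.5 with a library left out) and Irf7 (0.28 and 0.43 with limma). The cause was not tested. For the library given both at the 1-cell stage, 1 gene in place of 0 reached 2-fold with library totals (Eif2ak2, 2.03).

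Over all genes, where edgeR called 0, DESeq2 called 420 higher and 114 lower at the 1-cell stage and 8 and 23 for the difference between stages. Limma on log2(cRPKM + 0.1) called 1 lower at the 1-cell stage, 2 higher at the 2-cell stage and 1 higher for the difference, and 2 or 3 genes were higher at the 1-cell stage without the Snrpd2 library or the library given both. Leaving out the only mCherry library of a stage leaves no contrast there. No paired analysis was possible because each condition had 1 library and the labels carry no replicate numbers; the injection is a term of the stage model. Depth limits Ifih1, Ifit1 and, at the 1-cell stage, Irf7 and Isg15.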

Other observations

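Interferon gamma had 102 reads over the 2-cell libraries, against 1 for the 5 type I interferon genes found. Ifng, chosen after its values were seen, had 2, 56, 18 and 26 reads in 2-cell embryos given Snrpb, Snrpd2, both and mCherry, against 0 reads in every 1-cell library. The control embryos lay within the range of the Sm embryos. The Snrpd2 library, the highest in Ifng, was also the highest in the summed immune cell markers (21.5 cRPKM, of which Lyz2 gave 14.7). The Snrpb library was the lowest in both (8.26 cRPKM). The mCherry library had more Ifng reads than the library given both, but a lower immune sum (9.04 against 10.9 cRPKM). The part of immune cells in the Ifng value was not tested. Tnf, an inflammatory cytokine gene also chosen after its values were seen, had 22, 1, 11 and 41 reads in the same 2-cell order, against 1, 2, 0 and 1 read in 1-cell embryos, and the mCherry library was the highest. The receptor genes for type I interferon were expressed at both stages. Ifnar1 had 1598, 1280, 1167 and 1258 reads in 2-cell embryos, against 1258, 980, 1205 and 1395 reads in 1-cell embryos (adjusted p = 0.112), and Ifnar2 had 84, 80, 73 and 113, against 47, 31, 27 and 14 (adjusted p = 0.00397).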
